A study of Drosophila melanogaster with 12 samples.

Results

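Small nucleolar RNAs (snoRNAs) were followed as a class in small RNA libraries made from ovaries and testes dissected from *Drosophila melanogaster*. The members were all entries that the deposited tables assign to the class snoRNA. There were 234 of 968 entries in ovary and 186 of 845 entries in testis. They cover 233 and 185 genes. Every testis gene was also listed in ovary. The annotation used for names holds 269 snoRNA and small Cajal body RNA genes, and 36 of them were listed in neither table.

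The 12 libraries came from 6 groups of 2 biological replicates each. Ovaries came from XX control females, from XXYohio females and from XXYcongo females, which carried an added Y chromosome named Yohio or Ycongo. Testes came from XY control males and from XYYohio and XYYcongo males with the same added chromosomes. The labels write every genotype, control or not, with a caret after the first letter, which they do not explain and which is left out here. All flies were 2 days old and were reared at 23 °C with 14 hours of light. The Yohio groups are the columns headed Cs, assigned by elimination because the control and Congo columns were named outright, so every Yohio value rests on that reading. None of the 11 ovary, testis and germ line marker genes looked up was found in either table. The tissue labels therefore had no marker check here. The marker nos had no match in the annotation and was looked up by symbol alone.

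snoRNAs work in the nucleolus as guides. Box C/D snoRNAs direct methylation of the ribose of chosen rRNA bases, and box H/ACA snoRNAs direct the conversion of chosen uridines to pseudouridine. U3 and U14 are box C/D snoRNAs that take part in cutting and folding the rRNA precursor, and scaRNAs guide the same modifications on spliceosomal snRNAs in Cajal bodies. In flies most snoRNAs are cut from introns of host genes, which are often ribosomal protein genes or non-coding Uhg genes. The symbols give the role: Me28S or Me18S marks a box C/D guide and Psi28S or Psi18S a box H/ACA guide, followed by the rRNA base, while Or-CD and Or-aca are orphan guides with no known target. Libraries were read over 50 cycles, so a read covers only part of most of these genes, whose annotated lengths ran from 46 to 316 bases in ovary with a median of 134.0. Values are therefore described as fragments of each snoRNA. The prefix "snoRNA:" of the symbols is left out below.

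Non-spike reads ran from 897596 to 2663239 per ovary library and from 589490 to 1310076 per testis library. snoRNA entries took 88958 to 196930 of these reads in ovary and 11353 to 24248 in testis, so testis values rest on fewer reads. Reads that match more than 1 entry may be counted under each, as their handling is unstated. The authors' values are whole reads multiplied by 1 factor per library. Of the 234 ovary entries 233 were on the strand called Plus, although 129 of the genes lie on the forward and 104 on the reverse genome strand. Plus was therefore read as the snoRNA's own strand. In testis 185 of 186 entries were Plus.

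The single Minus entry of ovary was U3:9B. It held 3 and 0 in the 2 XX libraries, 0 and 0.734 for XXYohio, then 1.93 and 0.883 for XXYcongo. Its Plus values were 3520 or more in every ovary library. The single Minus entry of testis was the orphan H/ACA snoRNA Or-aca4. Its values were 11 and 12.1 for XY, 7.40 and 2.13 for XYYohio, then 3.27 and 6.81 for XYYcongo. Both XY libraries lay above the other 4. The Plus entry of Or-aca4 held 307 and 184 for XY, 225 and 90.6 for XYYohio, then 211 and 135 for XYYcongo, so the Minus entry was the lower in every library.

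Within the class the levels ran over several orders of magnitude. Mean values over the 6 libraries ran from 0.781 to 6042 in ovary with a median of 40.1 and quartiles of 10.04 and 242. In testis they ran from 0.645 to 1124 with a median of 10.2. A few entries held a large share of the signal. The 10 highest entries of a library held 42.1% to 52.3% of the ovary snoRNA total and 47.1% to 61.2% of the testis total.

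Box C/D snoRNAs were far higher than box H/ACA snoRNAs per length. In ovary the median mean value per 100 bases of annotated length was 285 over 98 box C/D genes and 11.2 over 96 box H/ACA genes. In testis it was 32.3 over 94 and 2.69 over 67 genes. Box C/D entries held 81.6% to 84.9% of the snoRNA total in the ovary libraries and 75.9% to 79.6% in the testis libraries. Reads shorter than a gene need not cover long and short genes alike, so this is a difference in recovered fragments per length.

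**Figure D1:**
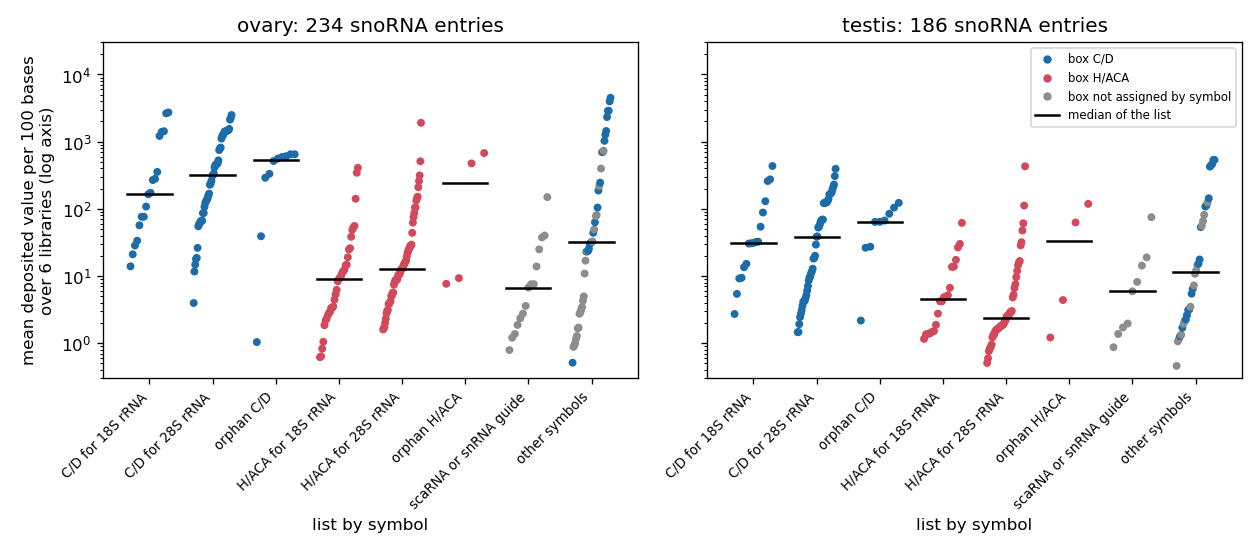
Mean deposited value per 100 bases of annotated length over the 6 libraries of a tissue (log axis) for every snoRNA entry, by list, with ovary left and testis right. Points are entries coloured by box and ordered by level within a list, and lines are list medians, which for C/D for 28S rRNA were 314 in ovary and 38.5 in testis, against 12.7 and 2.34 for H/ACA for 28S rRNA.

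The highest ovary entries per length were the rRNA processing snoRNAs. U14:30Ea (FBgn0063392) had a mean of 4493 per 100 bases, and its values were 3714 and 3374 for XX, 3959 and 2832 for XXYohio, then 4464 and 3491 for XXYcongo. U14:30Eb, its neighbour in the non-coding host Uhg2, followed with 3974 per 100 bases. U3:54Aa and U3:54Ab (FBgn0065048 and FBgn0065047) had identical values in every library of both tissues, so their reads cannot be assigned to 1 of the genes. Each was given 7255 and 6538 for XX, 4946 and 5411 for XXYohio, then 7199 and 4906 for XXYcongo, or 2877 per 100 bases on average. For U3 the XXYohio libraries were below both XX libraries, whereas the XXYcongo range overlapped that of XX. U14 values overlapped among the 3 genotypes. None of the 5 tested U3 and U14 entries was called in any comparison.

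The remaining places among the 10 highest ovary entries went to box C/D guides and U3:9B. Me18S-A425 (2719 per 100 bases) and Me28S-G2017 (2239) share the host RpL3, a ribosomal protein gene. Me18S-A1806 (2637) has no annotated host. Me28S-C3227a (2492) lies in the non-coding Uhg5, and Me28S-U2134a (2124) lies in RpL13A. The orphan Or-CD list had the highest list median of the ovary, 538 per 100 bases over 10 entries.

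In testis the same snoRNAs led, and 8 of the 10 highest entries per length were among the 10 highest of ovary. U3:54Aa and U3:54Ab came first with 535 per 100 bases. Their values were 1641 and 736 for XY, 1426 and 640 for XYYohio, then 1166 and 1133 for XYYcongo. U3:9B had 464, U14:30Ea 445, Me18S-A1806 434, Psi28S-3342 430 and U14:30Eb 425 per 100 bases. Psi28S-3342 was the only box H/ACA member among the 10. It held 661 and 564 for XY, 1045 and 355 for XYYohio, then 959 and 644 for XYYcongo, so the XYYohio libraries lay on both sides of the other 4. Me28S-A2564 (394), Me28S-C3227a (307) and Me18S-A425 (275) completed the list.

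snoRNAs of the same host gene differed widely in level. Annotation places 220 of the 233 ovary genes inside a host on the same strand, 167 of them in protein-coding and 53 in non-coding hosts. The 16 snoRNAs of Uhg1 ran from 23.1 to 1439 per 100 bases in ovary, from snR38:54Ec to U27:54Eb. The 5 snoRNAs of RpS16 ran from 2.32 to 1485. The lowest and highest of these were box H/ACA Psi28S-1175a and box C/D Me28S-G2173.

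The tables were normalized separately, so ovary and testis were set side by side only as shares of each library's own snoRNA total, with no test. The 48 genes listed in ovary alone were low there, with a median mean value of 3.41 and a highest of 22.2. Of these 29 were box H/ACA and 4 box C/D. Among 78 genes with a mean value of at least 20 in both tissues, Spearman's rho of the mean values was 0.857, over genes that share the same libraries. The share in all 6 testis libraries was above all 6 ovary libraries for 11 genes, below for 6 and overlapping for 61. The median entry mean was 40.1 in ovary and 10.2 in testis, so the cutoff of 20 removed mainly genes low in testis. Genes left out include some whose testis shares all lay below those of ovary, such as Me28S-G3255b. The 11 and 6 therefore do not give the balance over the whole class.

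Small Cajal body RNAs were among those with the larger testis shares. MeU2-48, which by its symbol guides methylation of U2 snRNA, took 0.687% to 1.1% of the testis total and 0.172% to 0.340% of the ovary total. MeU5-C46 took 0.178% to 0.282% and 0.0345% to 0.0767%. The largest shares on that side belonged to Psi28S-3342, at 5.28% to 7.05% in testis and 3.60% to 4.44% in ovary. Me28S-G764, a box C/D guide in Arf1, took 1.1% to 2.02% in testis and 0.224% to 0.462% in ovary. On the other side Me28S-U2134a took 0.818% to 1.45% in testis and 1.70% to 2.28% in ovary. U27:54Eb of Uhg1 took 0.627% to 0.878% and 1.14% to 1.71%.

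**Figure D2:**
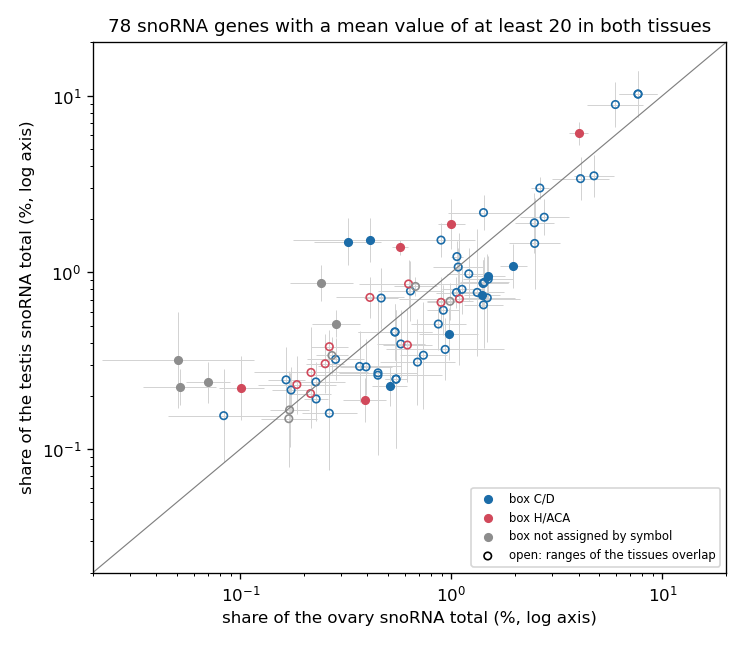
Share of the snoRNA total (%, both axes log) of 78 genes with a mean value of at least 20 in both tissues. Points sit at the geometric middle of the lowest and highest library, bars run from the lowest to the highest of 6 libraries, filled points are the 17 genes whose ovary and testis ranges did not overlap, and the diagonal marks equal shares.

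A ratio of class totals within a library does not depend on the library's scale factor. The snoRNA total was 0.385 and 0.398 times the transposable element (TE) total in the 2 XX libraries and 0.394 and 0.310 times in XXYohio. It was 0.163 and 0.138 times in XXYcongo. Both XXYcongo libraries lay below all 4 other ovary libraries. The mean ratio was 0.391 ± 0.00953 (SD, n = 2) in XX and 0.150 ± 0.0176 (SD, n = 2) in XXYcongo, or 0.384 times the XX mean. With 2 libraries a side, the smallest two-sided p of an exact permutation test is 0.333, which was reached here and against XXYohio. With Plus entries alone on both sides of the ratio, the means were 1.38 for XX, 1.22 for XXYohio, then 0.572 for XXYcongo.

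The TE side of that ratio differed most. TE values summed to 231234 and 201290 for XX, 202388 and 239203 for XXYohio, then 467543 and 451432 for XXYcongo. snoRNA values summed to 88958 and 80150, 79810 and 74082, and 76120 and 62240. The snoRNA totals of XXYcongo thus lay at the low end with some overlap with XXYohio, and its TE totals were above those of all 4 other libraries. The deposited scale sets these sums, whereas the ratio is free of it.

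Against rDNA fragments the ratio did not set the genotypes apart. The snoRNA total was 0.177 and 0.145 times the rDNA total in XX, 0.149 and 0.176 times in XXYohio and 0.202 and 0.156 times in XXYcongo. The XXYcongo mean was 1.11 times that of XX (exact permutation p = 0.667), and the libraries overlapped. rDNA values summed to 502772 and 552501 for XX, 536761 and 420894 for XXYohio, then 376055 and 397773 for XXYcongo. The XXYcongo rDNA sums thus lay below those of all other ovary libraries, on the deposited scale. The snoRNA share of all non-spike signal was 9.91% and 8.92% for XX, 9.04% and 9.05% for XXYohio, then 7.39% and 5.81% for XXYcongo. Less RNA per cell and fewer cells of a type cannot be told apart in such dissected organs.

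In testis neither ratio separated the genotypes. snoRNA to TE was 0.158 and 0.0756 for XY, 0.129 and 0.0928 for XYYohio, then 0.145 and 0.0717 for XYYcongo. Replicate 1 was above replicate 2 in all 3 groups. snoRNA to rDNA was 0.0302 and 0.0477 for XY, 0.0533 and 0.0163 for XYYohio, then 0.0402 and 0.0461 for XYYcongo. The ratios of the group means to the XY mean ran from 0.893 to 1.11, and the means differed from that of XY by less than the replicates of any group differed from each other. The exact permutation p-values against XY were 0.667 or 1.0.

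**Figure D3:**
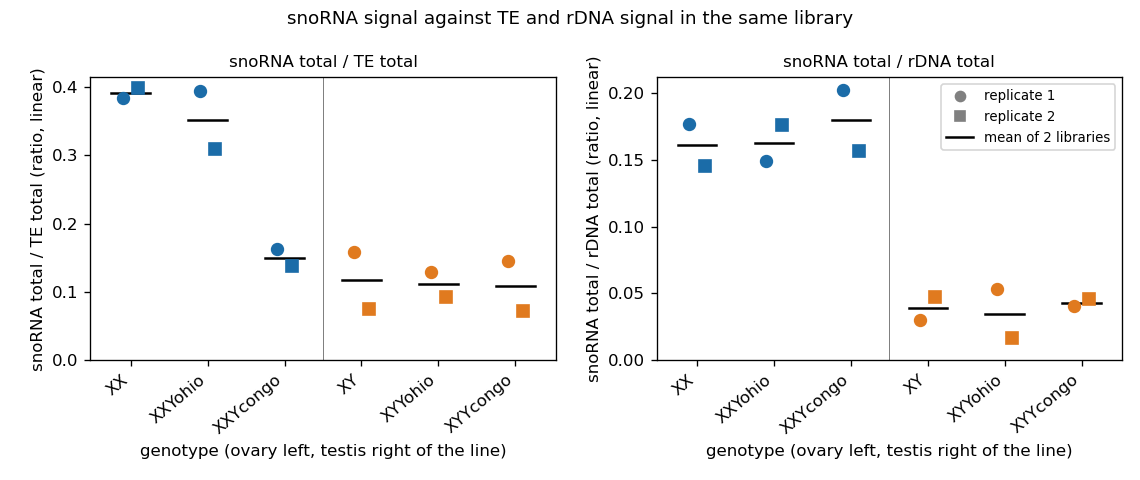
snoRNA total over TE total (left) and over rDNA total (right) in each of the 12 libraries, on linear axes from 0, with ovary in blue and testis in orange. Circles and squares are replicates 1 and 2 and lines are means of 2 libraries; the XXYcongo TE ratios, 0.163 and 0.138, lie below the other ovary libraries, and the rDNA ratios of the 3 ovary genotypes overlap.

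The balance of the guide types was more even. Box H/ACA entries held 13.4% and 14.8% of the snoRNA total in XX, 14.7% and 14.5% for XXYohio, against 12.1% and 13.4% for XXYcongo. In testis they held 17.0% and 18.2% for XY, 16.8% and 16.0% for XYYohio, then 16.9% and 17.4% for XYYcongo. XXYcongo lay below XXYohio and XYYohio below XY without overlap, by 1.84 and 1.15 percentage points. XYYcongo lay above XYYohio without overlap, by 0.726 percentage points. The smallest p that 2 against 2 libraries allow in an exact permutation test, 0.333, was reached in all 3 and is no call.

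Single snoRNAs were tested next, with limma on log2(value + 1) and Benjamini-Hochberg adjustment over all tested entries of a table. Entries needed a mean of at least 5, which 194 snoRNA entries in ovary and 115 in testis met. For the added Ycongo chromosome in females, the comparison asks how snoRNA fragments differ from XX. In XXYcongo ovary 25 of 194 snoRNA entries were called lower than in XX and 1 was called higher, at an adjusted p under 0.05 in limma. Over all 791 tested entries 4.3% were called lower and 45.5% higher. Of the 597 entries of other classes 9 were lower and 359 higher, so snoRNA entries made up 25 of the 34 lower calls. The libraries of the groups did not overlap for 86 snoRNA entries on the lower and 11 on the higher side, where 14.0% and 59.5% of all tested entries lay.

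The median log2 difference of the snoRNA entries was -0.29, beside 0.74 over all tested entries and 1.13 over TE entries. The scale decides where 0 lies. With TMM scaling the median of all entries came out at 0.00 and the snoRNA median at -1.02. limma then called 100 snoRNA entries lower and 0 higher, where 18.8% and 22.6% of all tested entries were called. On the recovered whole reads edgeR called 98 lower (18.8% of all entries) and DESeq2 105 (19.7%). With spike-in scaling the snoRNA median was 0.62. There limma called 0 snoRNA entries, with 1 at an unadjusted p under 0.05, beside 33.4% of all tested entries called higher and 0.126% lower. Spike-ins were 6.35% to 24.7% of all values in ovary and differed within groups. The distance between the snoRNA median and the median of all entries was -1.03 as deposited and -1.02 with TMM scaling, and -0.98 with spike-in scaling.

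The smallest p belonged to Me28S-A2113 (FBgn0086039), a box C/D guide within the ribosomal protein gene RpL30. Its values were 1179 and 1029 for XX, 1132 and 1052 for XXYohio, then 620 and 508 for XXYcongo. Both XXYcongo libraries lay below all others. It fell by 0.97 ± 0.23 (SE) on the log2 scale, with an adjusted p of 0.00332 in limma, and the call held without any 1 library. With spike-in scaling its difference was -0.04 (adjusted p = 0.969, limma), and none of the falls named here was called under that scaling. Me28S-G2017, from RpL3 and among the highest snoRNAs of the ovary, held 2702 and 2168 for XX, 2593 and 2420 for XXYohio, then 1432 and 1179 for XXYcongo. It fell by 0.90 ± 0.22 (SE; adjusted p = 0.00435, limma), but without XX replicate 1 the adjusted p was 0.0557. Me28S-G3255b of Uhg4 showed the same order at a lower level, with 103 and 70.6 in XX and 33.6 and 39.7 in XXYcongo (log2 difference -1.20 ± 0.32 SE, adjusted p = 0.00679, limma).

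Uhg5, a non-coding host, held snoRNAs that went both ways. Me28S-G2703a had 575 and 767 for XX, 354 and 269 for XXYohio, then 363 and 110 for XXYcongo, the largest fall of the class at 1.73 ± 0.43 (SE) on the log2 scale (adjusted p = 0.00479, limma). Both added Y chromosomes thus stood below XX for this entry, but in XXYohio it was not called. Me28S-C3227a held 2388 and 2457 in XX and 1604 and 1240 in XXYcongo and fell by 0.78. Its near namesake Me28S-C3227b was the 1 entry called higher. It held 503 and 392 for XX, 436 and 735 for XXYohio, then 755 and 1108 for XXYcongo, a rise of 1.04 ± 0.30 (SE; adjusted p = 0.0114, limma). Of the 11 tested snoRNAs of Uhg5, 1 was called higher and 2 lower, with log2 differences from -1.73 to 1.04.

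Of the 76 tested box H/ACA entries, 10 were called lower and none higher in limma. Psi18S-1086, in the splicing factor gene Sf3b3, held 867 and 862 for XX, 692 and 447 for XXYohio, then 537 and 227 for XXYcongo, and fell by 1.31 ± 0.36 (SE; adjusted p = 0.0085, limma). Psi18S-1377b of RpS7 held 119 and 110 in XX and 61.5 and 24.7 in XXYcongo and fell by 1.52. Without XXYcongo replicate 2 neither was called, with adjusted p-values of 0.0856 and 0.0528 in limma. The orphan Or-CD8 held 707 and 729 in XX and 492 and 280 in XXYcongo and fell by 0.95. The snoRNA FBgn0065058, which lies in CG10576 and is plotted under its number symbol, held 662 and 636 in XX and 409 and 346 in XXYcongo and fell by 0.78.

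**Figure D4:**
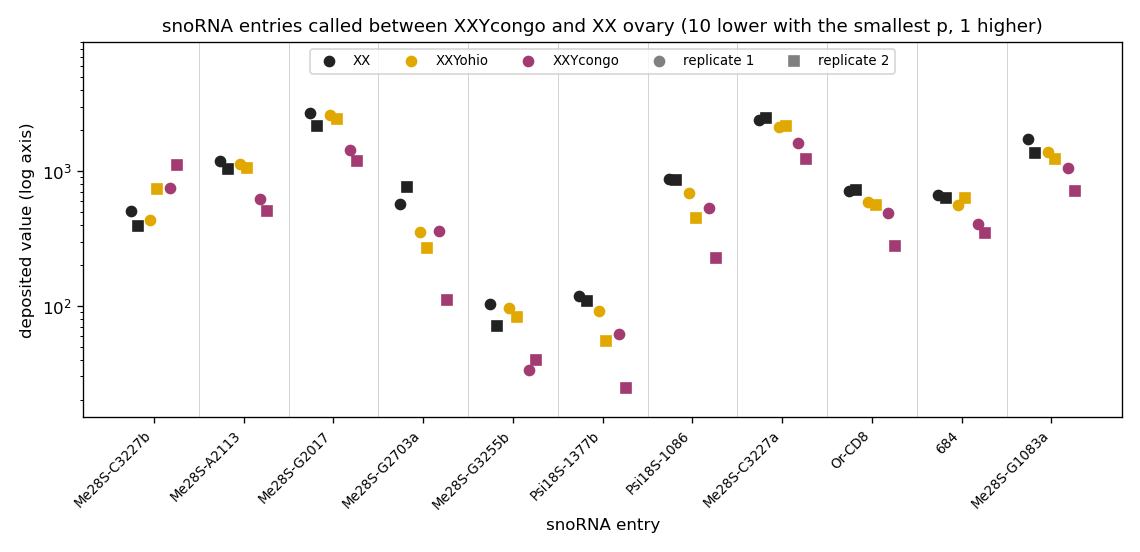
Deposited values (log axis) in the 6 ovary libraries for the 1 snoRNA entry called higher and the 10 entries with the smallest p called lower between XXYcongo and XX ovary (limma). Circles are replicates 1, squares replicates 2 and colours genotypes; Me28S-C3227b rises from 503 and 392 to 755 and 1108, and the other 10 lie lower in both XXYcongo libraries than in both XX libraries.

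Me28S-G1083a stood for 4 near copies. Me28S-G1083a to Me28S-G1083d lie in introns of Nop60B, the gene of the pseudouridine synthase of box H/ACA particles, and had nearly equal values, so reads may be split or shared among them. Me28S-G1083a held 1742 and 1364 for XX, 1380 and 1229 for XXYohio, then 1048 and 709 for XXYcongo, and fell by 0.84 (adjusted p = 0.0133, limma). All 4 were called lower and count as 4 of the 25. Of the 6 tested snoRNAs in Nop60B 4 were called lower, and of the 11 in RpS5a 3 were. Of the 16 in Uhg1 none was called and their median difference was 0.06.

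By list, 11 of 49 tested box C/D guides of 28S rRNA and 2 of 18 of 18S rRNA were called lower. Box H/ACA guides gave 8 of 49 for 28S and 2 of 23 for 18S rRNA. Of the orphans 1 of 9 box C/D and 0 of 4 box H/ACA entries were called lower, and of the 34 entries with other symbols 1 was. The list medians lay between -0.47 and -0.16 except for the 8 tested scaRNA entries, which had a median of 0.08 and no call. All of these medians were below that of all tested entries, 0.74.

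Calls depended on single libraries. Shares of all tested entries are not given for fits without 1 library, here or below. The counts of such fits show how far snoRNA calls moved, not how snoRNAs stood beside other entries. Without XX replicate 1 there were 6 lower calls, without XX replicate 2 there were 15, without XXYcongo replicate 2 there were 9 and without XXYcongo replicate 1 there were 34. Of the 11 entries shown by library 10 lost the call without some library, Me28S-A2113 being the exception. The largest adjusted p-values so reached were 0.193 for Or-CD8, 0.157 for Me28S-G1083a, 0.117 for Me28S-C3227a and 0.101 for FBgn0065058 without XXYcongo replicate 2. They were 0.0963 for Me28S-C3227b and 0.0533 for Me28S-G2703a without XX replicate 2, and 0.0613 for Me28S-G3255b without XX replicate 1.

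**Figure D5:**
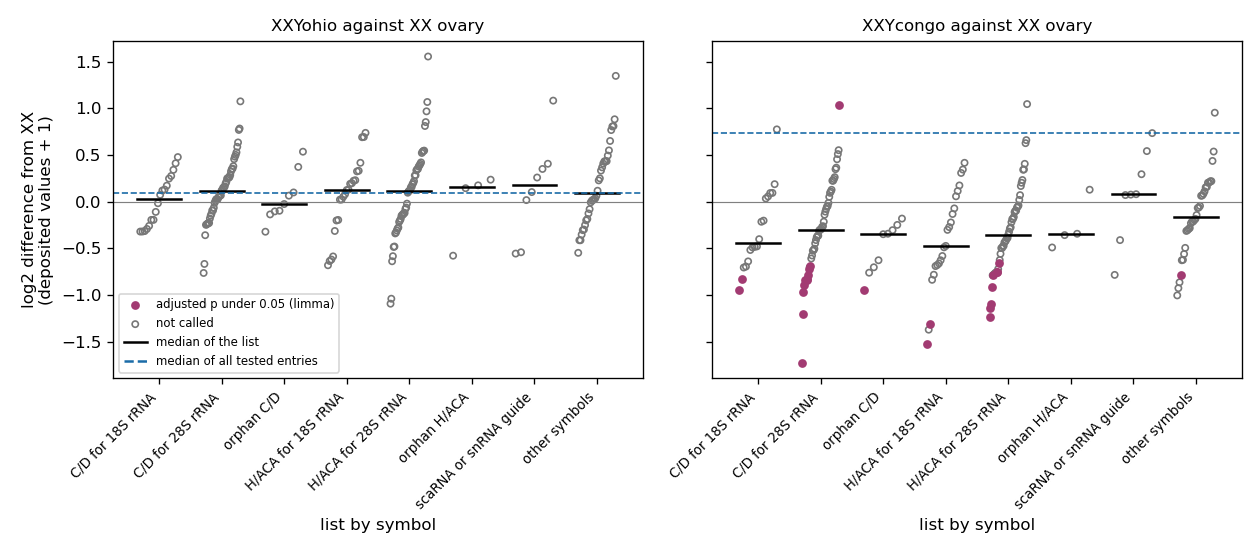
log2 differences of deposited values + 1 from XX for the 194 tested snoRNA entries by list, for XXYohio (left) and XXYcongo (right). Filled points are called at an adjusted p under 0.05 in limma, 0 on the left and 26 on the right, black lines are list medians, and dashed lines mark the medians of all tested entries, 0.10 and 0.74.

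Change within the class was asked by scaling each library to its own snoRNA total. In limma 7 entries were then called lower in XXYcongo and 5 higher, where 1.64% and 50.1% of all tested entries were called. All 7 were among the 25: Me28S-A2113 (-0.68), Me28S-G2017 (-0.60), Me28S-G2703a (-1.43), Me28S-G3255b (-0.91), Psi18S-1377b (-1.24), Psi18S-1086 (-1.01) and Or-CD8 (-0.66). The 5 higher were Me28S-C3227b (1.33), Me18S-G1358b (1.06), U31:54Ed (0.83), U76:54Eb (0.73) and Psi18S-301 (0.64). The log2 differences in brackets are of shares of the snoRNA total. U31:54Ed and U76:54Eb lie in Uhg1, and both had higher deposited values in both XXYcongo libraries than in both XX libraries, at 164 and 178 against 118 and 117 for U31:54Ed.

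The direct comparison of the added chromosomes gave a similar number of calls. XXYcongo against XXYohio had 25 lower and 2 higher snoRNA entries of 194 in limma, where 4.17% and 44.9% of all tested entries were called. The median was -0.41 beside 0.83 over all tested entries. With TMM scaling limma called 110 lower, where 21.1% of all tested entries were called. With spike-in scaling it called 0 in either direction, with 0 at an unadjusted p under 0.05, where 0.0% of all tested entries were called lower and 6.83% higher. The lower lists of this comparison and of XXYcongo against XX share the XXYcongo libraries and had 8 entries in common, 8 of 25 in each. The overlap over all tested entries was not computed, so this count cannot be read as large or small.

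Me28S-G2017 and Me28S-A2113 led again, with falls of 0.95 and 0.96. Among entries not called against XX, Or-CD12 of RpL28 held 479 and 669 for XXYohio, against 169 and 312 for XXYcongo, a fall of 1.30 ± 0.31 (SE; adjusted p = 0.00394, limma). Its neighbour Me28S-C3351, also of RpL28, held 426 and 506 against 224 and 274 and fell by 0.90. Further box C/D guides called lower than in XXYohio were Me28S-U3344b (fell by 1.06), Me28S-C3420a (fell by 0.90) and Me18S-G1620 (fell by 0.76). Me28S-G3113b, which was also called lower against XX, fell by 0.94. The box H/ACA guide Psi28S-2149 of RpS7 fell by 1.07 from 184 and 209 to 115 and 75.5.

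The 2 higher entries were box C/D guides. Me18S-G1358b held 36.2 and 41.1 for XXYohio, against 73.1 and 95.3 for XXYcongo and rose by 1.09 ± 0.32 (SE; adjusted p = 0.0118, limma). Me28S-A2564 held 534 and 458 for XXYohio, against 981 and 731 for XXYcongo and rose by 0.77, while XX stood at 792 and 779. Neither rise was called with TMM scaling, where the log2 differences were 0.40 for Me18S-G1358b and 0.07 for Me28S-A2564 (adjusted p = 0.24 and 0.838, limma). Without XXYohio replicate 1 there were 9 lower calls, without XXYohio replicate 2 there were 13. Among the 12 named entries 9 lost the call without some library, and the exceptions were Me28S-G2017, Me28S-A2113 and Or-CD12. The largest adjusted p-values so reached in limma were 0.142 for Me28S-A2564 and 0.121 for Me18S-G1620 without XXYcongo replicate 1, 0.0942 for Me18S-G1358b without XXYohio replicate 1 and 0.0914 for Me28S-C3420a without XXYohio replicate 2. Psi28S-2149 reached 0.0744 without XXYcongo replicate 2.

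For the added Yohio chromosome in females limma called 0 of 194 snoRNA entries on the deposited scale, with 11 at an unadjusted p under 0.05, edgeR called 0 and DESeq2 called 1 higher, beside 3.03% of all tested entries. Without XX replicate 2 limma called 1 higher, and without XXYcongo replicate 1 or 2 it called 1 lower. Over all tested entries limma called 2.53% higher and 0.759% lower. The snoRNA median difference from XX was 0.11, beside 0.10 over all tested entries. U31:54Ed of Uhg1, the DESeq2 call, had 118 and 117 for XX, against 215 and 198 for XXYohio (log2 difference 0.81 ± 0.26 SE, adjusted p = 0.154, limma). Me28S-G3253 of RpS9 had 665 and 600 for XX, against 422 and 328 for XXYohio (-0.76, adjusted p = 0.16, limma). Me28S-A2564 had 792 and 779 against 534 and 458 (-0.67, adjusted p = 0.209, limma). These 3 had the smallest p of the class, and their groups did not overlap.

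The 5 U3 and U14 entries all had a lower mean in XXYohio than in XX, with a median log2 difference of -0.41 and 3 without overlap, where 18.3% of all tested entries were lower without overlap. The 3 were the U3 entries, and U3:54Aa and U3:54Ab hold the same values, so they count as 2 profiles. U3:9B held 6153 and 5459 for XX, against 3520 and 4465 for XXYohio. None of the 5 was called in limma, and 1 had an unadjusted p under 0.05.

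In testis limma called no snoRNA entry in any of the 3 comparisons. At an unadjusted p under 0.05 there were 0 for XYYohio against XY, 5 for XYYcongo against XY and 0 for XYYcongo against XYYohio. edgeR and DESeq2 called 0 as well. Over all 618 tested testis entries limma called 0.647% higher and 0.0% lower for XYYohio, 1.13% and 0.485% for XYYcongo, and 0.0% in both directions between them. The snoRNA medians were -0.08, 0.14 and 0.22, beside 0.04, 0.25 and 0.23 over all tested entries. The limma standard errors of these comparisons came from a trend over all tested entries, not from each entry's own replicates.

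For snoRNA entries, replicates of XYYohio and XYYcongo stood further apart than those of the other groups. The median absolute log2 distance between replicates of a snoRNA entry was 0.31, 0.28 and 0.40 in XX, XXYohio and XXYcongo. It was 0.40 for XY, 1.13 for XYYohio, then 0.70 for XYYcongo. Replicate 1 was the higher for 111 of 115 entries in XYYohio and for 107 of 115 in XYYcongo. Other classes gave a different order. For TE entries the distance was 0.81 for XY, 0.74 for XYYohio and 0.44 for XYYcongo. For entries of the class tDNA it was 0.76, 0.51 and 0.61, so XY replicates were the furthest apart in both.

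The smallest p of the testis class belonged to U31:54Eb of Uhg1, with values of 1 and 10.9 for XY, 8.22 and 6.40 for XYYohio, then 19.6 and 15.3 for XYYcongo. Its log2 difference between XYYcongo and XY was 1.91 ± 0.71 (SE; adjusted p = 0.156, limma), and it was called only without XY replicate 2 (log2 difference 3.20, adjusted p = 0.0197, limma). Me28S-G3113b held 7 and 7.26 in XY and 24.5 and 20.4 in XYYcongo (1.52, adjusted p = 0.402, limma). Or-CD11b held 12 and 33.5 against 85.0 and 34.0 (1.37, adjusted p = 0.419, limma). For XYYohio against XY the smallest p belonged to Psi28S-2566 (-1.32), Tudor-SN-a (-1.19) and the Minus entry of Or-aca4 (-1.29), each with an adjusted p of 0.772 in limma. Between XYYcongo and XYYohio they belonged to Psi28S-2566 (1.21), U31:54Eb (1.15) and Psi18S-996 (-1.16), each with an adjusted p of 0.995 in limma.

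The authors' deposited table for ovary gave 32 of 234 snoRNA entries, or 13.7%, an analysis of variance p-value under 0.05 over the 3 genotypes, beside 36.7% of all its entries. The authors' deposited table for testis gave 6 of 186, or 3.23%, beside 2.72%.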

How the data were processed

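The authors deposited 1 table per tissue with a value per entry, strand and library. In XX replicate 1 and XY replicate 1 these deposited values are whole read counts. In the other 10 libraries the authors' values are a signal equal to whole read counts times 1 factor per library, and dividing by it gave whole reads, within 0.01, for 100% of values. The deposited tables also hold an analysis of variance p-value per entry. Bowtie 1.1.1 and Trim Galore are named, per the submitters' processing notes. No coordinates are printed, because the build is not given in the sources used here. Handling of multi-mapping reads and the origin of the library factors are likewise unstated. Per the labels' protocols libraries had 15 PCR cycles.

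Names, lengths and hosts came from the BDGP6.54 annotation, by FlyBase identifier. limma 3.58.1 in R 4.3.3 was run with eBayes and a trend on log2(value + 1), which understates changes of low entries. All 3 genotypes of a tissue shared 1 model with 3 residual degrees of freedom, spike-ins were left out, and tests were two-sided. Prior degrees of freedom were 9.59 in ovary and infinite in testis. The code was tested on simulated data. edgeR 4.0.16 and DESeq2 1.42.0 were run on the recovered reads. Intervals were not computed. In ovary, limma standard errors and p-values combine an entry's own spread between replicates, shared over the groups, with a trend fitted over all tested entries. The prior degrees of freedom gave that trend the larger weight. In testis, where they were infinite, the standard errors rest on the trend alone, not on the entry's own replicates. The counts carry no molecular identifiers.

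Named entries were the 10 highest per 100 bases in each tissue, up to 10 called entries per direction and comparison by smallest p (or the 3 smallest p where fewer than 3 were called) and the highest Minus entry. Other names were chosen after their values were seen. The host gene of some snoRNAs is not reported here. The members, lists and tests were chosen with earlier results of these data known.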

Additional observations from a re-analysis of the deposited data

Results flagged for a closer look

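Of 18 named entries tested in both tissues, 6 had log2 differences of opposite sign in ovary and testis for the same added chromosome, with no overlap between the groups in either tissue. The 18 were named partly for a small p in 1 tissue. Of all tested snoRNA entries, 44.3% were lower without overlap for Ycongo in ovary and 18.3% higher in testis, and for Yohio 27.8% were higher in ovary and 9.57% lower in testis. Among tested entries of other classes these shares were 4.19% and 26.2% for Ycongo, and 28.8% and 11.5% for Yohio. The difference between tissues was not tested, because the tables were normalized separately, and chance gives such patterns too. All values are log2 differences from the control of the same tissue. For Yohio, Psi28S-2566 was 0.54 in ovary and -1.32 in testis. For Ycongo, Me28S-A2113 was -0.97 in ovary and 0.60 in testis, Psi18S-1086 was -1.31 and 0.47, and Me28S-G1083a was -0.84 and 0.60. Me28S-G3113b was -0.69 in ovary and 1.52 in testis, and Or-CD11b was -0.34 and 1.37. Only the ovary values of Me28S-A2113, Psi18S-1086, Me28S-G1083a and Me28S-G3113b passed the threshold in limma, and no testis value did.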

How the results depend on the processing

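Scaling decided most counts of called snoRNA entries. For XXYcongo against XX the 25 lower calls became 100 with TMM and with median-of-ratios scaling, 46 with non-spike total, 7 with snoRNA total, 11 without the trend, 98 with edgeR and 105 with DESeq2. Spike-in scaling gave 0, with and without the replicate block. The 1 higher call became 0 with TMM, median-of-ratios and spike-in scaling (also with the block), without the trend, and with edgeR and DESeq2. It became 5 with snoRNA total and 2 with no filter. For XXYcongo against XXYohio the 25 lower calls became 110 (TMM), 114 (median-of-ratios), 61 (scaled to all non-spike values), 8 (scaled to snoRNA values), 106 with edgeR, 121 with DESeq2 and 0 with spike-in scaling, also with the block. The 2 higher calls became 0 under TMM, median-of-ratios, non-spike total and spike-in scaling (also with the block), edgeR and DESeq2. For XXYohio against XX DESeq2 gave 1 higher call. Shares of all tested entries are given above for only some of these settings. The counts here therefore show how far the snoRNA calls moved with the processing, not how snoRNAs stood beside other entries. The cause was not tested.

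The labels give replicate numbers 1 and 2 in every group. Same-numbered libraries correlated in their deviations from group means at 0.0161, 0.0651 and 0.246 in ovary and 0.414, 0.353 and 0.396 in testis, and over snoRNA entries alone at -0.030, -0.014 and 0.446 in ovary and 0.321, 0.00964 and 0.346 in testis. The numbers alone do not show pairing, and same-numbered libraries were not taken as paired in the main fit. Pairing by number was neither established nor excluded. The replicate block gave 32 lower calls for XXYcongo against XX, 42 for XXYcongo against XXYohio and 1 for XXYohio against XX.

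Leaving out 1 library, lower calls ran from 6 to 34 for XXYcongo against XX, from 9 to 32 for XXYcongo against XXYohio and from 0 to 1 for XXYohio against XX. Higher calls ran from 0 to 4, from 1 to 2 and from 0 to 1, and from 0 to 2 for XYYcongo against XY.

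Direction turned with spike-in scaling, with and without the block, for Me28S-G3253 (0.51) and Me28S-A2564 (0.61) in XXYohio against XX. It also turned for Me28S-G2017 (0.032), Me28S-C3227a (0.15), FBgn0065058 (0.14) and Me28S-G1083a (0.091) in XXYcongo against XX. Psi18S-996 ran from -2.40 to 0.078 in XYYcongo against XYYohio with 1 library left out, and was above 0 without XYYohio replicate 1.

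With Plus entries alone the snoRNA to TE ratio was 1.38 for XX, 1.22 for XXYohio and 0.572 for XXYcongo. In testis that ratio was 0.202 for XY, 0.193 for XYYohio, then 0.189 for XYYcongo. With identical profiles counted once it was 0.358 in XX, and the snoRNA to rDNA ratio was 0.0386 in XYYcongo. The box H/ACA share was then 15.4% in XX, 15.7% in XXYohio, 14.03% in XXYcongo, 19.8% for XY, 18.3% for XYYohio, then 19.2% for XYYcongo. With genes listed in both tables it was 14.4% in XXYohio.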

Other observations

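The orphan box H/ACA snoRNA Or-aca5 of Uhg4 stood apart by replicate number rather than by genotype, a pattern noticed after its values were seen. Its values in replicates 1 and 2 were 518 and 1696 for XX, 799 and 1524 for XXYohio, then 428 and 1039 for XXYcongo. In testis they were 51 and 151 for XY, 44.4 and 92.8 for XYYohio, then 55.6 and 162 for XYYcongo. As a share of the snoRNA total replicate 2 was 2.05 to 4.61 times replicate 1 in the 6 groups. Among the 78 genes compared between tissues it was the only one with a share at least 1.5 times higher in replicate 2 of every group, and none was at least 1.5 times higher in replicate 1 of every group. With no threshold, replicate 2 had the lower share in every group for 6 genes and the higher for 1. The 6 were Me28S-G764, Psi28S-2442b and Me28S-G1083a to Me28S-G1083d. For Psi28S-2442b the share in replicate 2 was 0.358 to 0.671 times that in replicate 1. For the orphan Or-aca4 the same ratio ran from 0.728 to 1.1.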
